A study of Mus musculus with 30 samples.

Results

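The splicing events described here are tandem acceptors: pairs of 3' splice sites that lie 3 nucleotides (nt) apart, so that the choice between them adds or leaves out 3 nt at the start of an exon. They were taken from the deposited splicing table of the series as every alternative acceptor, other than the reference row of its event, whose use lengthens the exon by 3 nt. The rule found 5568 members in 4386 genes, and 905 of those genes held 2 or more. The members made up 6.1% of the 91304 alternative acceptors and 1.02% of the 545595 splicing events of all kinds counted the same way. No measured level entered the choice. A library's value was used only where 10 or more reads covered the event.

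RNA selected for polyA was sequenced from the mouse embryonic stem cell line CGR8 (the ESC stage), from embryoid bodies at day 8 that had been given retinoic acid (EB8), and from glutamatergic neurons after 7 days in vitro (DIV7). Each stage was sampled in 5 lines: the parental wild type (WT), a line in which exon 5 of Puf60 was deleted on both alleles (Puf60_mEx5_HOM), lines that always include this exon from both alleles (Puf60_pEx5_HOM) or from 1 allele (Puf60_pEx5_HET), and a line with a deletion in Rbm38 (Rbm38KO). The edited lines are clonal lines made from CGR8 with CRISPR-Cas9, so every group shares the CGR8 background, and WT is their unedited parent. Each of the 15 groups has 2 libraries, A and B, 30 in all. The study speaks of 2 independent clones, but the labels tie no library to a clone, so the p-values measure the spread between these libraries. Puf60 is a relative of U2AF2 that binds the polypyrimidine tract before an acceptor, and Rbm38 is an RNA-binding protein of mRNA processing and stability.

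An intron ends in AG, and the splicing machinery finds this AG in several steps. The U2 auxiliary factor binds the polypyrimidine tract through U2AF2 and the AG through U2AF1 while the intron is first recognised, and the AG is read again when the exons are joined. Where a triplet ending in AG is followed directly by another one (the NAGNAG motif), both can serve. The upstream AG is usually met first, and the base before an AG ranks, from most to least favoured, as C or T, then A, then G. In coding sequence the choice usually adds or removes a single amino acid, at times with a change of its neighbour, and does not shift the reading frame.

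The sequences below were chosen because the results turn on them. They are read 5' to 3' on the gene's strand from GENCODE M21 transcripts (genome build mm10). In the first set, 12 bases of the upstream exon are followed in capitals by the 3 bases that only the longer form holds, then by 15 bases of the exon that both forms share. Ralgapa1 and Snap47 changed between stages, Glyr1 between lines, and Gnas and Ctcf are a known and a steady tandem acceptor.
Ralgapa1: gtttatctgaagCAGgatcctacccagaga
Snap47: tagctgcttaggCAGatactgcagcctctg
Glyr1: actgcagagaaaGAGggggcccgcctagga
Gnas: gtttaacggagaTAGtgagaaggccactaa
Ctcf: cctctgacagtgAAGaaaatgctgagccgg

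In the second set a transcript also spans the intron, so both triplets can be printed. The capitals mark the triplet before the upstream acceptor and the extension, which is the triplet before the downstream acceptor. Galt, Taz and Cyth2 changed between stages, Brd9, Ehmt1, Grin1 and Atp5h are met again in the edited lines, Puf60 holds a tandem acceptor of its own, and Mtdh has the weakest downstream triplet.
Galt: ttctagcctattcttgtCAGTAGgtgaatc
Taz: gctttggcatttctccgAAGTAGgaattgg
Cyth2: ccctcccaccccttcccTTGCAGggggccg
Brd9: aggacatggatttctctCAGCAGgcagctc
Ehmt1: ttgcttgccttttgtttTAGCAGctgcagt
Grin1: tgtgtatttctattttaCAGCAGtaccatc
Atp5h: gacttccttttccatacGAGTAGgttggct
Puf60: tatttccttcctgcctgCAGCAGgtcaatg
Mtdh: tttttctcgggctatgtCAGGAGcctggga

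The letters of the extension could be read for 4346 members, and 4340 of these ended in AG. The triplet before the upstream acceptor could be read for 1054 members, where a transcript runs through the intron, and 1045 ended in AG. Of the members, 3710 lay in coding sequence, 320 in a 5' UTR, 49 in a 3' UTR and 336 in transcripts without a coding frame, and 1153 matched no GENCODE exon. The region is that of a transcript with the upstream acceptor where GENCODE has such a transcript, or else with the downstream acceptor. A transcript of the other form can differ in region. Among coding members the 3 nt fell between codons in 1693 (45.6%), after the first base of a codon in 1439 (38.8%) and after the second base in 578 (15.6%). GENCODE lists the upstream acceptor of 3836 members, the downstream acceptor of 1558 and both of 979. In 3842 members (69%) the event has only these 2 acceptors. The event has 3 acceptors for 1180 members, 4 for 376 and 5 or more for 170.

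The level of each member is its percent spliced in (PSI), the share of the event's reads that used the upstream acceptor, out of all acceptors of the event. The share within the pair, computed from the reads of the 2 acceptors that lie 3 nt apart, is given beside it where an event has more. Of the 5568 members, 4158 had 10 reads in at least 1 library and 2589 had them in all 30. Among the 2589, the mean PSI was below 5 in 663, between 5 and 95 in 771 and above 95 in 1155. A mean PSI of 35 to 65, where both forms are common, was found in 137.

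Among members with 2 acceptors and reads in all libraries, the upstream acceptor was the major one. Over these 1611 members the median of the mean PSI was 97.1, with quartiles of 77.8 and 99.7. The level went with the letters of the extension. With CAG as the extension (399 members) the median PSI was 78.5 and 80.5% of members lay between 5 and 95. With TAG (76 members) the median was 82.1, with AAG (402 members) it was 98.2, and with GAG (560 members) it was 99.8. Only 5.54% of the GAG members lay between 5 and 95. The letters could be read only where GENCODE lists the upstream acceptor or a transcript runs through the intron. The 172 members whose letters were not read had a median PSI of 5.35, against 97.8 in the 1439 with letters. The levels by letter thus hold for members chosen in part by annotation of the upstream acceptor.

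**Figure D1:**
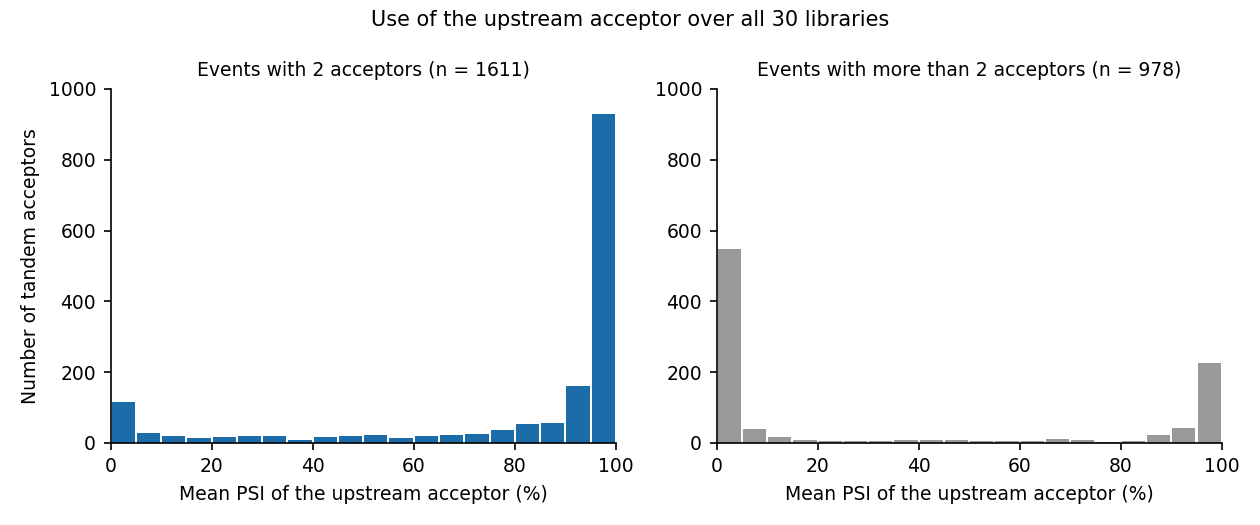
Histogram of the mean PSI (percent, horizontal axis) over all 30 libraries, for members with 2 acceptors (1611) and for members with more than 2 (978). Members with 2 acceptors pile up at the high end (median 97.1), those with more at the low end (median 1.46).

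The order of the extension triplets was the same among the 402 members of which GENCODE lists both acceptors. Their median PSI was 66.7 for CAG (263 members), 69.3 for TAG (46), 90 for AAG (66) and 97.5 for GAG (16). Where both triplets could be read, CAG followed by CAG had a median of 76.5 in 32 members, CAG followed by AAG had 95.3 in 22, and CAG followed by GAG had 99.7 in 34, all of them above 95. Mtdh, whose product is the membrane protein metadherin, has this last pair (chr15:34114799-34114802, plus strand), with PSI from 98.7 to 100 in all 30 libraries. With a weaker triplet upstream than downstream the downstream acceptor was the major one: AAG followed by CAG had a median of 29.3 in 6 members, and GAG followed by CAG had 1.05 in 5, all below 5. AAG followed by GAG had 99.1 in 5. The last 3 sets are small. These levels are descriptions of members that share libraries and depth. In the 978 members with more than 2 acceptors the median PSI was 1.46. In the 416 of these with 10 reads on the pair itself in every library, the median PSI was 95.9 and the median share within the pair 97.6. In the rest of the 978 the median PSI was 0.117. Asking for 10 reads on the pair in every library favours members whose pair is in use, so the 416 do not stand for all 978.

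Reads over the members came to 647157 to 882953 per library. In members with a mean PSI of 5 to 95 the median per library was 71 to 97 reads. In these members libraries A and B of a group differed by a median of 3.6 PSI points. The median was 7.94 points where the shallower library had 10 to 29 reads, 4.49 at 30 to 99 reads and 2.23 at 100 or more. The edited genes followed their labels in direction: exon 5 of Puf60 had a PSI of 20.7 to 44 in the 6 WT libraries, 93.2 to 99 in Puf60_pEx5_HOM, 49.2 to 64.9 in Puf60_pEx5_HET and 7.49 to 13 in the libraries labelled Puf60_mEx5_HOM, which is above 0. Rbm38 in the authors' deposited table was lower in Rbm38KO than in WT at each stage, with log2 fold changes of -4.39, -3.51 and -1.91 at ESC, EB8 and DIV7 (FDR 1.04e-13, 1.17e-08 and 0.0392). In the authors' deposited table the 7 ESC markers summed to 6163 to 9374 RPKM per ESC group and 26.3 to 255 per DIV7 group, and the 8 neuronal markers to 93.8 to 118 and 2595 to 2934. The 5 astrocyte markers in the authors' deposited table summed to 15.2 to 19.6 RPKM per ESC group and 174 to 365 per DIV7 group. In that authors' deposited table the DIV7 groups also had 1368 to 1999 RPKM of progenitor markers (892 to 1544 at EB8), 26.9 to 64.1 of oligodendrocyte (6.81 to 10.4), 19.9 to 169 of fibroblast or mesoderm (7.55 to 34) and 2.07 to 26 of endoderm markers (1.75 to 6.48). Fewer cells of a type cannot be told apart from less RNA per cell in these bulk samples. The part of this mixture in the results below was not tested.

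Few tandem acceptors changed by much as stem cells became embryoid bodies and then neurons. The log2 ratio of inclusion to exclusion reads was fitted with limma for all events with a mean PSI of 5 to 95, and p-values were adjusted over all of them (Benjamini-Hochberg). To be called, an event had to move by 10 or more PSI points with an adjusted p below 0.05. Averaged over the 5 lines, 15 of 837 members were called between ESC and EB8 (1.79%), 5 up and 10 down, while 19.3% of all 18287 events tested were called. Between EB8 and DIV7, 21 of 887 members were called (2.37%), 10 up and 11 down, while 22.1% of all 19914 events were.

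Whatever their p, 2.03% of the members moved by 10 points or more from ESC to EB8. The same size was reached by 7.01% of the other alternative acceptors, 13.9% of the alternative donors, 28.5% of the cassette exons and 19.6% of the retained introns. From EB8 to DIV7 the values were 2.71% for the members and 10.5%, 12.3%, 35.5% and 19.1% for the other kinds in the same order. At 5 points, 13.7% and 12.6% of the members were reached in the 2 steps. The median size of a member's change was 1.74 and 1.5 points, against 4.08 and 4 over all events. Most tandem acceptors thus held their balance to within a few points through both steps.

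**Figure D2:**
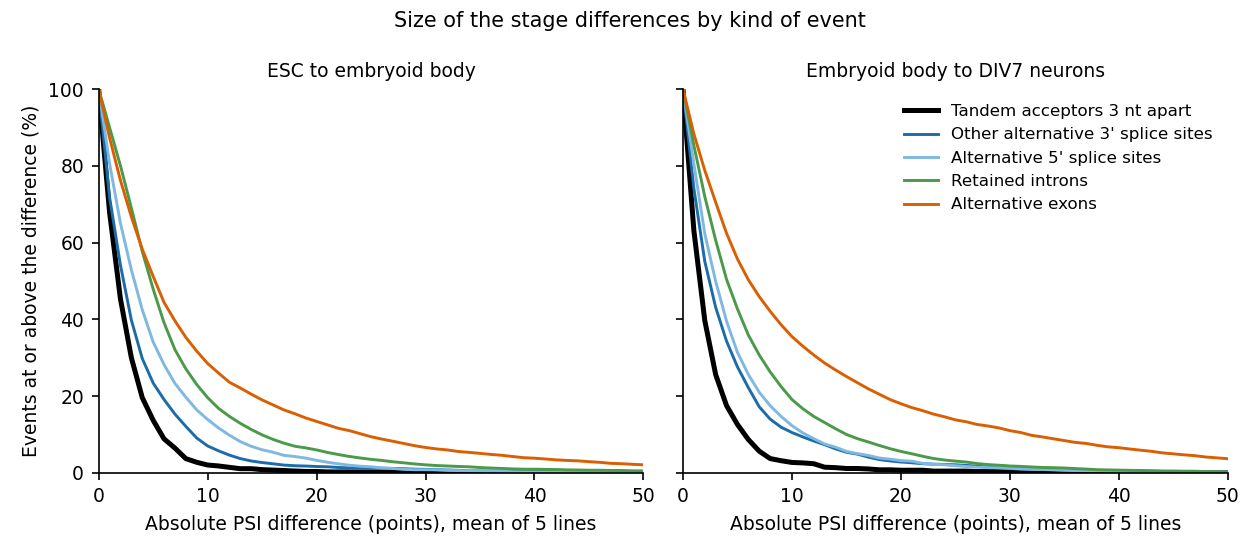
Share of events (percent, vertical axis) whose PSI changed by at least the number of points on the horizontal axis, for tandem acceptors and the 4 other kinds of event, from ESC to EB8 and from EB8 to DIV7, averaged over the 5 lines. The curve of the tandem acceptors lies lowest at 10 points in both steps, at 2.03% and 2.71%.

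Small changes were more frequent than called ones and had a direction. At an adjusted p under 0.05 alone, 52 members rose and 132 fell from ESC to EB8, 184 of 837, while 34.8% of all events rose and 19.4% fell. From EB8 to DIV7, 107 members rose and 39 fell, 146 of 887, while 27.7% of all events rose and 24.5% fell. The sign was the same in all 5 lines for 110 of the 184 and 91 of the 146. In 103 and 71 of them the change was under 5 points. Among the 98 members that passed from ESC to EB8 with a mean PSI of 50 or below, 87 fell, and among the 86 above 50, 45 fell. The direction depends on which members are tested: 71.7% of the members past the threshold fell from ESC to EB8, but 49.8% did when members with a mean PSI outside 5 to 95 entered the fit. For the step to DIV7 those shares were 26.7% and 43.9%.

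The largest fall was in Fsd1l, which codes for a fibronectin type III and SPRY domain protein that is enriched in brain. Its tandem acceptor lies in coding sequence. The PSI was 89.5 at the lowest, 98.4 at the median and 100 at the highest of the 10 ESC libraries, 38.3, 56.5 and 70.1 at EB8, and 7.14, 11.2 and 20.2 at DIV7. No library of a stage overlapped with another stage. The change was -41.9 points from ESC to EB8 (log2 ratio -3.56 ± 0.32 SE, adjusted p = 1.37e-09) and -42.0 points from EB8 to DIV7 (-2.83 ± 0.19, adjusted p = 3.55e-12). The 2 WT libraries were both at 100 at ESC, at 56.8 and 56.8 at EB8, and at 17.8 and 10.1 at DIV7. At EB8 the libraries of Puf60_mEx5_HOM were lower, at 38.3 and 43.2, and those of Puf60_pEx5_HOM higher, at 70.1 and 69.8, but neither difference from WT was called (-16.0 points, adjusted p = 0.0903, and 13.2 points, adjusted p = 0.106). Read support was 20 to 111 per library. The longer form thus went from nearly all of the reads at this joint to the lesser share of them.

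The largest rise was in Ralgapa1, the catalytic subunit of a GTPase-activating protein for the small GTPases RalA and RalB. Its pair (chr12:55604268-55604271, minus strand) lies in the 3' UTR of the transcript that GENCODE gives, and the extension is CAG. The PSI was 0 at the lowest and the median and 2.5 at the highest of the ESC libraries, 0.98, 7.23 and 15.7 at EB8, and 43.2, 47.7 and 54 at DIV7. All DIV7 libraries lay above all others. The rise from EB8 to DIV7 was 40.9 points (log2 ratio 3.42 ± 0.19 SE, adjusted p = 5.39e-14), on 32 to 122 reads per library. In WT the libraries were at 0 and 0, then 5.81 and 3.68, then 44.8 and 47.

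A further 3 members whose reads lie almost wholly in the pair were called with all libraries of 1 stage beyond all of the other: Cyth2, Taz and Snap47. Cyth2, an exchange factor for Arf GTPases, had a PSI of 72.8 to 92 at ESC (median 83.2), 93.5 to 96.9 at EB8 (96.3) and 95.9 to 98.2 at DIV7 (97.9). The rise from ESC to EB8 was 12.7 points (log2 ratio 2.09 ± 0.13 SE, adjusted p = 1.16e-12). At ESC the WT libraries had 82.8 and 83.2 and those of Puf60_pEx5_HOM 89.2 and 92, a difference of 7.6 points (adjusted p = 0.0347), while Puf60_mEx5_HOM had 77.3 and 72.8 (adjusted p = 0.457). The bases before its upstream acceptor (chr7:45808449-45808452, minus strand) are TTG, as printed above, so no AG precedes the acceptor that the table counts as used. The same intron holds a 3-nt exon event of the table (chr7:45808730-45808732), which was listed at a PSI of 0 to 0.06 in all 30 libraries. Whether reads with the same length of insertion could be assigned to either was not tested. In all, 39 of the 5568 members have a 3-nt exon event in their intron. Ralgapa1 and Glyr1 are among them, with that exon at 0 and at no more than 0.51 in the libraries that covered it. The exon in the Dctn2 intron had median PSI values of 5.02 at ESC, 57.6 at EB8 and 93.4 at DIV7. That in Nlgn1 had a median of 6.16 at DIV7. In most of the other members with reads the median of the exon was 0.

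Taz, the cardiolipin-remodelling enzyme tafazzin on the X chromosome (chrX:74288448-74288451, plus strand), fell from ESC to EB8. Its PSI was 21 to 33.3 at ESC (median 27.7), 13.4 to 19.5 at EB8 (16.2) and 7.09 to 27.1 at DIV7 (18.8). The change of -11.8 points had a log2 ratio of -1.01 ± 0.17 SE and an adjusted p of 1.77e-05, and its DIV7 libraries overlapped with both earlier stages. Snap47, a SNARE protein of vesicle fusion, has its pair in the 5' UTR (chr11:59438513-59438516, minus strand). Its PSI was 22.6 to 50.7 at ESC (median 35.9), 31.1 to 49.2 at EB8 (37.1) and 22.6 to 29.2 at DIV7 (25.1). The change of -12.3 points from EB8 to DIV7 (log2 ratio -0.84 ± 0.13 SE, adjusted p = 6.93e-06) left all DIV7 libraries below all EB8 libraries.

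**Figure D3:**
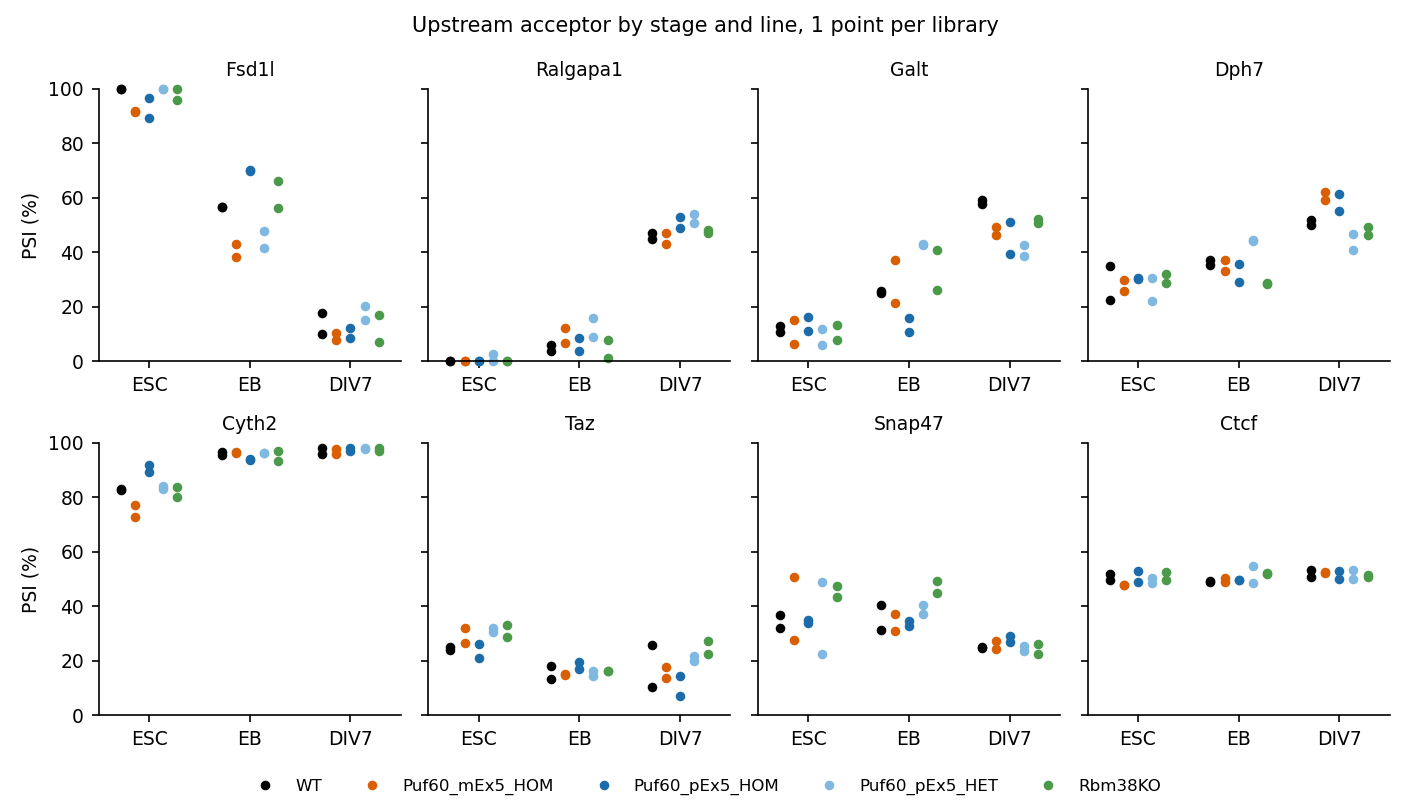
PSI (percent, vertical axis) of 8 tandem acceptors in each of the 30 libraries, by stage (horizontal axis), with 1 colour per line. Fsd1l falls and Ralgapa1 rises with all libraries of DIV7 apart from those of EB8, while Ctcf stays between 47.7 and 54.7.

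The groups of 10 libraries did not overlap in 11 of the 837 members tested from ESC to EB8 (1.31%), 4 of them called, against 14.7% of all events tested. From EB8 to DIV7 they did not overlap in 8 of the 887 (0.902%), 6 of them called, against 15.9% of all events. Besides the members above, the called ones were Brd9, Cpsf4 and Slc4a3, which have further acceptors. Other called members had stages that overlapped, and the following were picked after their values were seen. Galt, the uridylyltransferase of galactose breakdown, rose in both steps. Its pair is CAG and TAG (chr4:41756344-41756347, plus strand). The GENCODE transcript of the longer form has no coding frame. GENCODE also lists the downstream acceptor, and the region of that shorter form was not looked up. The PSI was 5.8 to 16.1 at ESC (median 11.6), 10.7 to 43.2 at EB8 (25.9) and 38.8 to 59.3 at DIV7 (50.1), with rises of 17.8 points (adjusted p = 1.50e-06) and 19.9 points (adjusted p = 1.34e-05). The lines were far apart at EB8, where Puf60_pEx5_HOM had 10.7 and 16 and Puf60_pEx5_HET had 43.2 and 42.5.

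Dph7, an enzyme of diphthamide synthesis, rose by 17 points from EB8 to DIV7 (adjusted p = 4.26e-08). Its pair lies in the 3' UTR of the transcript with the longer form, and the shorter form was not looked up. Its PSI was 22 to 35.1 at ESC (median 30), 28.2 to 44.6 at EB8 (35.5) and 40.7 to 62 at DIV7 (51). Tmem219, a membrane protein, changed by 14.2 and then by -16.2 points (adjusted p = 2.61e-04 and 2.34e-05), with medians of 54.7, 65.9 and 50.8. Rpl10a, a ribosomal protein, was 26 points higher at DIV7 than at EB8 (adjusted p = 1.79e-04), but 1 WT library at EB8 was listed at 0 on 62 reads and the other at 30.7. Ribosomal protein genes have many near-identical copies in the genome, and whether the counting kept them apart was not tested. Other called members were Vps13d, Trmt10b, Oaz2, Dclk2, Etv3, Fam122b, Arhgef12 and Nipbl in the first step, and Vps13d, Lsm7, Ttc5, Tsc2, Syde2 and Fam122b in the later one. Their changes lay between -20.6 and 12.8 points. The Vps13d change of -12.4 points from EB8 to DIV7 was no longer called without WT library A of EB8 (-9.3).

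Over the 15 group means, the members whose PSI followed that of Fsd1l most closely, among 771 searched, were Brd9 (Spearman's rho 0.94), Pusl1 (0.93), Oaz2 (0.91) and Vps13d (0.90). These points share libraries, and all 5 members fall across the stages. Oaz2, an antizyme of ornithine decarboxylase, had median PSI values of 40.2, 20.4 and 15.8 at the successive stages. Vps13d, a lipid transfer protein, went from 64 to 47.6 and 31, on 13 to 33 reads per library.

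In some called members reads moved to or from further acceptors of the event, while the balance within the 3-nt pair changed little. Of the 15 called from ESC to EB8, 5 had more than 2 acceptors, and of the 21 called from EB8 to DIV7, 12 had. Within the pair, 1 of those 5 changed by under 5 points and 3 by 10 or more in the first step, and 7 of the 12 by under 5 and 4 by 10 or more in the later one. The share within the pair was added after the data were seen. With it in place of PSI, 13 members were called in the first step, while 19.4% of all events were, and 13 in the later step, while 22.2% were. All 13 were called with PSI too in either step.

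Brd9, a bromodomain subunit of a SWI/SNF chromatin remodelling complex, is such a case in the later step. Its PSI was 56.8 to 74.3 at ESC (median 68.3), 29.1 to 49.4 at EB8 (42.1) and 3.57 to 14.2 at DIV7 (8.69), with no overlap between stages. These were changes of -27.0 points (adjusted p = 1.01e-09) and -31.8 points (adjusted p = 2.22e-14). Within its pair of CAG and CAG (chr13:73942691-73942694, plus strand) the medians were 82.5, 77.4 and 77.7, with differences of -6.6 (adjusted p = 0.011) and 3.0 points (adjusted p = 0.788). Ehmt1, a histone lysine methyltransferase, changed by -10.8 and -22.3 points in PSI (adjusted p = 4.41e-07 and 8.33e-11), with medians of 79.9, 67.9 and 46.2. Within its pair (chr2:24863905-24863908, minus strand) the medians were 90.1, 92.5 and 91.6, and the differences of 1.9 and -2.3 points were small but past the threshold (adjusted p = 0.0154 and 0.0069).

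Glyr1, a nucleosome-binding protein with a fold like that of a dehydrogenase, rose by 22.7 points from EB8 to DIV7 (adjusted p = 7.92e-15). Its PSI was 14.4 to 39.9 at ESC (median 33.9), 17.6 to 44 at EB8 (36.9) and 34 to 70.1 at DIV7 (61). The pair (chr16:5021427-5021430, minus strand) has GAG as its extension, and its share within the pair was 93.3 or more in all 30 libraries. Cpsf4, a subunit of the factor that cleaves pre-mRNA for polyadenylation, changed by -17.5 points from EB8 to DIV7 (adjusted p = 6.43e-08) but by 4.9 points within the pair. Slc4a3, an anion exchanger, rose by 14.9 points (adjusted p = 1.02e-09) and moved by 0.2 within the pair. Tmem94 and Pusl1 changed by -14.6 and -11.7 points, and by 0.4 and -0.4 within the pair. The Pusl1 call ended without library A of Puf60_pEx5_HOM at EB8, or library A of WT or B of Puf60_pEx5_HET at DIV7.

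**Figure D4:**
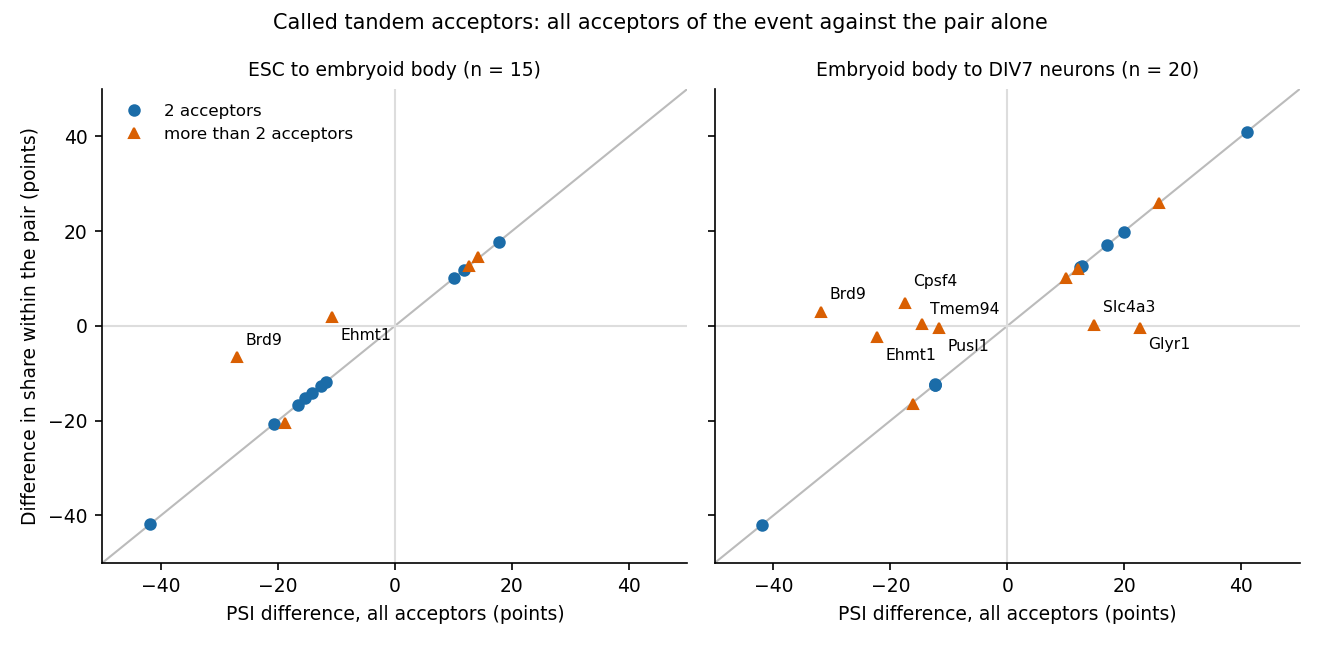
Change in PSI over all acceptors of the event (points, horizontal axis) against the change of the share within the 3-nt pair (points, vertical axis) for the called members of each step, 15 from ESC to EB8 and 20 of 21 from EB8 to DIV7 (Ttc5 has no value within the pair). Members with 2 acceptors lie on the diagonal, and Brd9, Ehmt1 and Glyr1 lie near the horizontal line at 0 in the later step.

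In WT alone, 12 of 907 members were called from ESC to EB8, 3 up and 9 down, while 13.3% of all events were called. From EB8 to DIV7, 24 of 993 members were called, 15 up and 9 down, while 17.3% of all events were. Fsd1l, Brd9, Ehmt1 and Cyth2 were among the first, and Fsd1l, Brd9, Ehmt1, Cpsf4, Snap47, Dph7, Slc4a3, Glyr1, Galt and Ralgapa1 among the second set. The mean of the other 4 lines, which are other libraries, had the same sign for 11 of the 12 and for 18 of the 21 that could be tested there, and reached 10 points for 4 and 10. The count for the first step was 6 without library B of WT ESC. For the later step it was 13 and 14 without library A or B of WT DIV7. Several WT calls rested on single libraries: those of Snap47 and Dph7 and of Cpsf4, Kifc3, Cep250 and Ehmt1 (from ESC to EB8) ended in 3 or 4 of the 4 cases of a library left out, that of Supt20 without library B of WT DIV7, and that of Brd9 from ESC to EB8 without library B of WT ESC. Kifc3 and Cep250 rose by 19.4 and 17.3 points, and both by 8.4 without library A of WT EB8. A test of whether a step differed between an edited line and WT found 0 members at an adjusted p under 0.05 in 8 such tests by limma, of 872 to 950 members each, with 36 to 46 at an unadjusted p under 0.05. Of all events, 0.503% passed in this test for the step from EB8 to DIV7 in Puf60_pEx5_HOM, 0.0155% for its first step, 0.0469% for the later step in Puf60_mEx5_HOM and 0% in the other 5 tests. The lowest adjusted p among members was 0.0632, for Gnas.

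Among the edited lines, the tandem acceptors called were nearly all in Puf60_pEx5_HOM. Averaged over the 3 stages, 4 of 806 members were called in this line against WT, while 3.3% of all events were. At 1 stage or more 9 members were called, of 945 tested at ESC, 1042 at EB8 and 1044 at DIV7, while 4.5% of all events were. The 4 were Glyr1, Ehmt1, Atp5h and Nle1, and those called at single stages included Zfp612, Grin1, Cdca2 and Reps1.

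Glyr1 was the steadiest of them. The WT libraries had a PSI of 39.1 and 33 at ESC, 40 and 38.1 at EB8, and 65.6 and 60.8 at DIV7. The Puf60_pEx5_HOM libraries had 17.2 and 14.4, then 18.8 and 17.6, then 37.2 and 34. Both libraries of the line lay below both WT libraries at every stage. The difference was -20.2, -20.8 and -27.6 points (adjusted p = 6.38e-06, 8.71e-07 and 7.95e-07) and -22.9 on average (log2 ratio -1.56 ± 0.10 SE, adjusted p = 5.02e-11). Within the pair it was -4.9, -0.4 and 0.7 points, and -1.5 on average, with no test because the pair share is above 95 on average. In Puf60_pEx5_HET, with 1 edited allele, the libraries had 30.9 and 27, 37 and 29.4, and 53.5 and 54.7, an average of -7.3 points from WT that was not called (adjusted p = 0.0816).

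Ehmt1 had a WT PSI of 83.3 and 83.8 at ESC, 70.2 and 75.4 at EB8, and 48.8 and 40.6 at DIV7. In Puf60_pEx5_HOM it was 64.4 and 61.5, then 49.5 and 53.8, then 27.5 and 38. The differences were -20.5 points (adjusted p = 5.02e-04), -21.2 points (adjusted p = 5.20e-05) and, below the threshold, -11.9 points (adjusted p = 0.282). The EB8 call was lost with the unweighted log ratio. The average was -17.9 points (adjusted p = 3.05e-06), and 1.9 points the other way within the pair (adjusted p = 0.584). For Glyr1 and Ehmt1 the lower PSI thus went with a larger share for the further acceptors of the event, with little shift towards the site 3 nt away.

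Zfp612, a zinc finger protein, and Grin1, the obligatory subunit of NMDA receptors, had a lower PSI with a like share within the pair in neurons. Zfp612 had a PSI of 65.8 and 64.2 in WT at DIV7 and 41.5 and 39.3 in Puf60_pEx5_HOM, a difference of -24.6 points (adjusted p = 0.0015) that was -1.4 within the pair. At EB8 it was -23.9 points (adjusted p = 0.0383), a call that ended without any 1 of the 4 libraries. Grin1 had 56.5 and 66.8 in WT at DIV7 and 39.2 and 36.9 in the line. The difference was -23.7 points (adjusted p = 8.50e-07), and -0.4 within its pair of CAG and CAG (chr2:25292125-25292128, minus strand). Without read weights the Grin1 call was lost, both with the log ratio and with the deposited PSI. The Zfp612 call at DIV7 was lost with the unweighted log ratio. In the authors' deposited table Grin1 expression differed in the line by log2 fold changes of 1.86 at ESC (FDR 9.35e-08), -1.01 at EB8 (FDR 0.0167) and 0.58 at DIV7 (FDR 0.281).

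With the share within the pair in place of PSI, 4 members were called at 1 stage or more, while 4.49% of all events were, and 1 on average, Atp5h, while 3.3% were. Glyr1, Grin1 and Nle1 had no such test of the average. Atp5h codes for subunit d of the mitochondrial ATP synthase, and its pair is GAG and TAG (chr11:115417935-115417938, minus strand). The PSI in WT was 14.3 and 17.3 at ESC, 33.1 and 18.3 at EB8, and 27.3 and 15.3 at DIV7. In Puf60_pEx5_HOM it was 11.6 and 9, then 9.17 and 9.16, then 1.41 and 4.57. The average difference was -13.5 points (log2 ratio -1.81 ± 0.34 SE, adjusted p = 9.40e-04). By stage it was -5.5 (adjusted p = 0.594), -16.5 (adjusted p = 0.108) and -18.3 points (adjusted p = 0.00902), and the DIV7 call ended without WT library A (-12.3 points) or library A of the line. The event had 23 to 32 reads in WT libraries and 61 to 160 in those of the line. Atp5h expression in the authors' deposited table differed between the line and WT by log2 fold changes of 0.15, -0.10 and 0.18. In that authors' deposited table Atp5h had 527, 471 and 647 RPKM in WT at ESC, EB8 and DIV7. Rbm8a, at 129, 58.7 and 37.3 RPKM there, had 924 to 4341 reads on its event. Which part of the Atp5h mRNA the reads of the Atp5h event stand for was not tested. At ESC, Puf60_mEx5_HOM had 42.9 and 41.6, 26.5 points above WT, which was not called (adjusted p = 0.569).

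**Figure D5:**
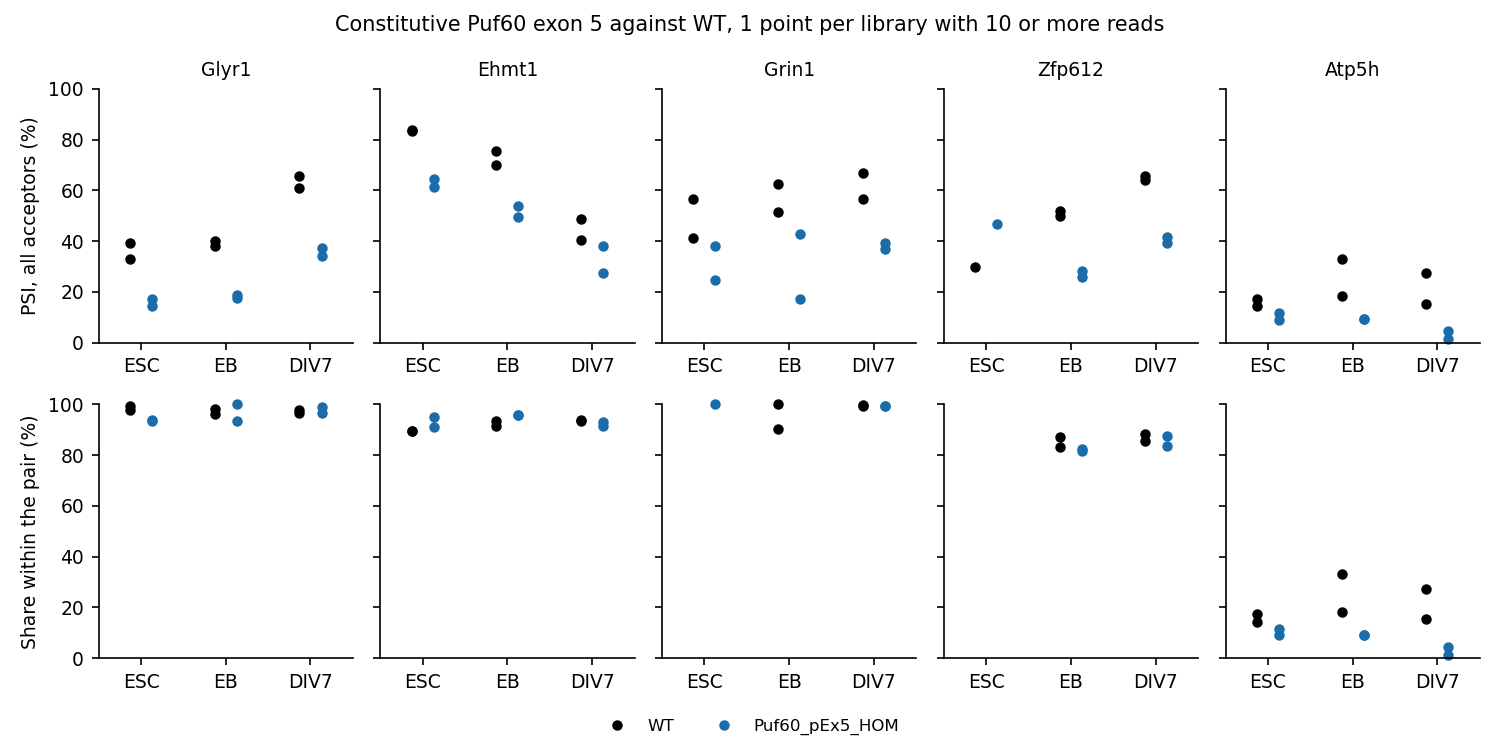
PSI over all acceptors (top, percent) and share within the 3-nt pair (bottom, percent) of 5 members in each library of WT and Puf60_pEx5_HOM, by stage. In the top row the line lies below WT, except for Zfp612 at ESC, where 1 library of each had reads. In the bottom row Glyr1, Ehmt1, Grin1 and Zfp612 lie near WT, with differences of -4.9 to 3.6 points, and Atp5h is lower.

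Further calls in Puf60_pEx5_HOM were each at 1 stage or ended when some libraries were left out. Nle1, a factor of ribosome assembly, had 4.27 and 5.68 in WT at ESC and 11.1 and 19.2 in the line, 10.2 points higher (adjusted p = 0.00551), and 10.3 points higher on average (adjusted p = 0.00478). Its share within the pair, on 29 to 105 reads, moved the other way at ESC, by -11 points (adjusted p = 0.835), and the ESC call ended without library A of WT (9.5) or library B of the line (6.2). The average call ended in 5 of the cases of a library left out, where the value was 8.5 to 9.7. Cdca2, a regulator of protein phosphatase on chromatin, had 69.4 and 69.4 in WT at ESC and 82.1 and 82.6 in the line (adjusted p = 0.00704). Reps1, an endocytosis adaptor, had 94 and 93 against 85.2 and 79.6 at EB8 (adjusted p = 0.0251). The calls of Cdca2 and Reps1 each ended in 3 of the 4 cases of a library left out. Over the 4 cases the difference was 12.7 to 13.2 points in Cdca2 and -13.9 to -8.3 in Reps1. At the other stages Cdca2 and Reps1 differed from WT by -7.1 to 3.8 points.

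The other edited lines had almost no called member. In Puf60_mEx5_HOM the only call was Brd9 at EB8, with 49.4 and 47.8 in WT and 33 and 29.1 in the line (-17.5 points, adjusted p = 0.0292, and -1.1 points within the pair). It ended without any 1 of the 4 libraries. At 1 stage or more 1.24% of all events were called in this line, and limma called 0 of 814 members on average over the stages, with 46 at an unadjusted p under 0.05, while 0.256% of all events were called. In Puf60_pEx5_HET, limma called 0 of 808 members on average, with 35 at an unadjusted p under 0.05, while 0.0569% of all events were called. At 1 stage or more it called 0 members, with 37 to 53 per stage at an unadjusted p under 0.05, and 0.0765% of events. In Rbm38KO it called 0 of 818 members on average, with 34 at an unadjusted p under 0.05, while 0% of all events were called, and at 1 stage or more 0 members, with 29 to 52 per stage at an unadjusted p under 0.05, and 0.0137% of events. With the deposited PSI unweighted in limma, 5 members were called at some stage and 1 on average in Puf60_mEx5_HOM, and 1 at some stage in each of Puf60_pEx5_HET and Rbm38KO. The share of all events called at this setting is not given here.

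The factors known to find the acceptor were looked up in the authors' deposited table, 32 genes from U2af1 and U2af2 to Slu7 and Prpf18. In the authors' deposited table Puf60 itself was lower in Puf60_mEx5_HOM at each stage (FDR under 0.05), with Sf1, which binds the branch point, at EB8. U2af1l4, a relative of U2af1, was higher in Puf60_pEx5_HOM at ESC (log2 fold change 0.50, FDR 0.00226) in the authors' deposited table. The remaining factors did not pass in any line and stage. Over all 25359 genes of the authors' deposited table, 0.197%, 7.36% and 0.272% passed in Puf60_mEx5_HOM at ESC, EB8 and DIV7. In the authors' deposited table the shares were 8.55%, 4.87% and 4.98% in Puf60_pEx5_HOM, and 0.0237% to 0.351% in Puf60_pEx5_HET and Rbm38KO.

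Mouse genes with a tandem acceptor known from textbooks and earlier work held 12 members, among them those in Igf1r, Pax3, Pax7, Gnas, Brca1, Ptbp2, Smarca4 and Mtdh, and 11 had 10 reads in a library. Of these, 5 could be tested from ESC to EB8 and 4 from EB8 to DIV7. None of those tested was called, while 19.3% and 22.1% of all events were. Gnas, the stimulatory G protein alpha subunit, has its pair with TAG as the extension (chr2:174341650-174341653, plus strand). Its PSI was 9.99 to 16.9 at ESC (median 12.6), 6.01 to 11.6 at EB8 (7.51) and 6.34 to 7.59 at DIV7 (6.94). The change of -5.2 points from ESC to EB8 had an adjusted p of 4.16e-10, and that of -1.0 points to DIV7 had 0.00663, at 284 to 2078 reads per library. At EB8, Puf60_pEx5_HOM had 11.6 and 11.3 and WT 7.12 and 7.53, a difference of 4.1 points (adjusted p = 3.36e-04). These differences are smaller than the 10 points of a call but were measured at great depth.

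Ptbp2, a neuronal splicing repressor, kept both forms at a near-equal level, with medians of 50.2, 47.5 and 48.9. Igf1r, the receptor for insulin-like growth factor, had medians of 12.5, 10.8 and 14.3, and its rise of 3.8 points to DIV7 had an adjusted p of 0.037. Pax3 and Pax7, transcription factors of the dorsal neural tube, had reads in all libraries only at EB8, with medians of 73.1 and 81.7. The tandem acceptor of Puf60 (chr15:76077699-76077702, minus strand, CAG and CAG) had medians of 92.8, 91.1 and 93.5, with a rise of 2.3 points from EB8 to DIV7 (adjusted p = 0.00379).

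Host genes were also grouped into functional lists by the start of their symbol. Over all members, 52 rose and 132 fell of 837 from ESC to EB8 at an adjusted p under 0.05, and 107 rose and 39 fell of 887 from EB8 to DIV7. In hosts of RNA processing, 1 rose and 9 fell of 37 in the first step, and 1 rose and 2 fell of 37 in the later one. In chromatin and transcription hosts it was 5 and 18 of 82, then 20 and 3 of 89. Trafficking hosts had 0 and 5 of 28, then 2 and 2 of 28, excitability and synapse hosts 1 and 4 of 21, then 3 and 2 of 29, and cytoskeleton hosts 3 and 3 of 43, then 5 and 1 of 42. The median difference in the first step was -1.11 points in RNA processing hosts and -0.46 in chromatin hosts, and -0.61 over all members tested. Called in any contrast were 1 of the 170 members in RNA processing hosts (Cpsf4) and 3 of 287 in chromatin hosts (Brd9, Supt20 and Zfp612). In excitability and synapse hosts it was 2 of 199 (Grin1 and Snap47). In cytoskeleton hosts it was 4 of 234 (among them Dclk2, Kifc3 and Cep250), and in trafficking hosts 1 of 130 (Vps13d). The share of all events called in any contrast is not given here, so these counts serve to name members and do not compare the lists. The lists go by symbol and do not hold every gene of a function: Ehmt1, Glyr1 and Nipbl are outside the chromatin list.

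The steadiest members show how little some of these choices moved. Among 29 members with a mean PSI of 35 to 65 and 100 reads in every library, the median range over the 30 libraries was 15.6 points. Ctcf, the insulator and chromatin loop protein, had the smallest range, 47.7 to 54.7 on 507 to 1360 reads (chr8:105680071-105680074, plus strand, AAG as the extension). Rbm8a, a core protein of the exon junction complex, had 48.8 to 56.7 on 924 to 4341 reads. Fubp1 had 34.6 to 45.6, Rnf44 37.9 to 49.4, Edc4 32.1 to 44.3 and Dnmt1 46.9 to 59.2. Rbm8a still changed by -2.1 points from EB8 to DIV7 (adjusted p = 0.0188), and Ctcf changed by 0.4 and 1.3 points (adjusted p = 0.665 and 0.227). These members were picked for their small range, which is a description.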

How the data were processed

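PolyA-selected RNA of 30 libraries was analysed from the splicing table that the authors deposited, which gives per event and library PSI in percent and, per the file headers, a quality string with read numbers. Per the submitters' processing notes the build is mm10, and Salmon 0.14.1 and edgeR were used; the aligner, and which files each tool made, is not given in the sources used here. RPKM, log2 fold changes and FDR (adjusted p-value) come from the authors' deposited expression table and were taken as given.

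Members were the alternative acceptors with a length of 3 nt, the first site of each event excepted, and values on fewer than 10 reads were left out. With limma 3.58.1 in R 4.3.3, log2((inclusion + 1)/(exclusion + 1)) was fitted with read-based weights to 15 group means (15 residual degrees of freedom), with Benjamini-Hochberg adjustment over all events. The fit was tested on simulated reads with the read totals of the data and known changes from ESC to EB8. Libraries were given a fixed spread beyond read sampling, the same for all events and not taken from the data. All lines changed alike. The shares called in the simulation hold for that setting. Of 40 members changed by 10 points, 45% were called in the mean of 5 lines and 12.5% in WT alone. At 20 points these shares were 97.5% and 62.5%. Of the unchanged events, 0.011% and 0.02% were called. A count of 0 for a single line and stage can thus miss changes of such sizes. The members and gene lists were chosen with earlier results of these data known. Members were named by rule: those called between stages whose 10 libraries do not overlap (up to 8 per direction), the 3 per direction that changed most in each edited line, up to 3 called per host list, hosts of known tandem acceptors and Puf60, the 6 of smallest range, and the 4 most like the strongest. Others were picked after their values were seen. The share within the pair was an alternative chosen after seeing the data, as was the look at 3-nt exons. The other settings tried were 20 reads, no PSI filter, no weights, 0.5 read added, deposited PSI, a 5-point call, the compared libraries alone, each library left out and a replicate block. GENCODE M21 transcripts gave positions and letters. No genome of the build was used, so intron letters come only from transcripts that span the intron. Some members, and the letters of some, are not reported here.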

Additional observations from a re-analysis of the deposited data

How the results depend on the processing

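With 5 points in place of 10, the calls were 81 of 837 from ESC to EB8 and 75 of 887 from EB8 to DIV7. They were 24 of 907 for WT from ESC to EB8 and 7 of 806 for the Puf60_pEx5_HOM average. With the share within the pair they were 13 from EB8 to DIV7, 1 for the Puf60_pEx5_HOM average, 4 for that line at any stage and 0 for Puf60_mEx5_HOM at any stage. Without the PSI filter they were 22 for WT from ESC to EB8 and 0 for Puf60_mEx5_HOM at any stage. With the unweighted log ratio they were 0 for Puf60_mEx5_HOM and 3 for Puf60_pEx5_HOM at any stage. With the deposited PSI unweighted they were 1 for the Puf60_mEx5_HOM average, 5 for that line at any stage, and 1 each for Puf60_pEx5_HET and Rbm38KO at any stage. The fit of the compared libraries alone uses fewer samples. The cause of the other shifts was not tested. For most settings of this section the share of all events called is not given here, so these counts do not compare members with other events. Whatever their p, 5 points were reached by 13.7% of members and by 23.4% to 51.2% of the other kinds from ESC to EB8. From EB8 to DIV7 it was 12.6% of members and 27.6% to 55.7% of the other kinds.

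With each library left out, the calls ranged over 14 to 19 from ESC to EB8, 19 to 22 from EB8 to DIV7, 6 to 11 and 13 to 22 for the same steps in WT, 0 to 2 for Puf60_mEx5_HOM at any stage, 3 to 5 for the Puf60_pEx5_HOM average, 6 to 10 for that line at any stage and 0 to 1 for Puf60_pEx5_HET at any stage (1 without library A of WT DIV7). A lone library left in a group was assumed to vary like the other groups. The share within the pair reversed Brd9 from EB8 to DIV7 (3.0 points), Cpsf4 in that step (4.9, and 9.4 in WT), Ehmt1 from ESC to EB8 (1.9, and 2.8 in WT), Ehmt1 from EB8 to DIV7 in WT (1.3), Ehmt1 in Puf60_pEx5_HOM at ESC, EB8 and on average (3.6, 3.4 and 1.9) and Nle1 in that line at ESC (-11). Of 59 results for named members, 56 of the 56 with a value kept their call at 20 reads, 51 without the PSI filter, 43 unweighted, 58 with 0.5 read added, 47 with the deposited PSI, and 26 of 31 in the compared libraries alone; leaving out a library kept the call in 601 of 652 cases.

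The letters A and B showed at most a weak pairing of libraries across lines. At ESC the differences of A minus B had correlations between lines of 0.032 to 0.134 (median 0.1), all above 0. Of these, 5 of 10 were over 0.1. The medians were 0.027 at EB8 and 0.002 at DIV7, with 0 of 10 over 0.1 at both. With the letter as a replicate block, the calls were 15 and 21 in the 2 steps, 15 and 27 in WT, 4 for the Puf60_pEx5_HOM average and 9 for that line at any stage, 0 and 1 for Puf60_mEx5_HOM, and 0 for the average and any stage of Puf60_pEx5_HET and Rbm38KO, and the 59 results for named members kept their calls. Depth limits what can be seen: members with 10 to 29 reads differed by a median of 7.94 points between libraries of a group. In 40.6% of these pairs of libraries the difference was 10 points or more. Changes of 10 points or less are thus hard to tell from the spread between libraries in such members.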
